A study of Bos taurus with 9 samples.

Results

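Of 17162 genes in the expression table of bovine endometrial cells (BEND), 8 were set apart from the untreated cells in the same direction in both hormone-treated groups. NTS, WNT6, P4HA3, TOB1, KIAA1551 and ETFBKMT were higher, and ZBED3 and IGFBP5 were lower. The level of a gene is given as its deposited FPKM, a count of fragments scaled by exon length and by the mapped reads of the library, so that levels can be compared between genes. A gene was included when its mean FPKM over the 9 libraries was at least 2 and when all 6 treated libraries lay beyond all control libraries by more than 1.4-fold. The mean of the group that also received interferon had to lie within 1.4-fold of the mean of the group with hormones alone. Of the 11191 genes whose mean FPKM reached 2, 6 met the rule on the higher side (0.0536%) and 2 on the lower side (0.0179%). All 9 libraries were used in choosing the 8 genes, so their differences between the groups are given as a description and without a test.

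The study treated wild-type primary cells from the endometrium of Holstein cows with steroid hormones and with interferon tau (IFNT). Control cells (CON) received neither. GA cells received estradiol (E2, 1 nM) and progesterone (P4, 100 nM) for 12 h. GB cells received the same hormones first, followed by IFNT at 100 ng/mL over another 12 h. Each group had 3 libraries. The sources used here do not say when CON and GA cells were collected or whether CON cells received fresh medium, so the hormones cannot be told apart from a difference in culture time or in medium. E2 and P4 were always given together, so their parts cannot be told apart either. The replicates were called biological in the methods, with no statement that they came from separate animals, so the spread between libraries may be partly technical.

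E2 and P4 act through nuclear receptors that bind DNA and change the transcription of target genes. In the cycle and in early pregnancy they govern the growth and secretion of the endometrium. IFNT, which the ruminant conceptus secretes, acts on the same tissue through a receptor at the cell surface and induces a separate set of genes. Both receptor genes were detected. The estrogen receptor gene ESR1 had a CON mean of 8.14 ± 1.45 FPKM (SD, n = 3), a GA mean of 8.08 ± 1.16 and a GB mean of 7.28 ± 0.739. The progesterone receptor gene PGR had 11.4 ± 0.278 FPKM in CON, 15.3 ± 1.17 in GA and 23.7 ± 1.93 in GB.

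The labels and methods describe the cells as epithelial, purified by differential attachment and positive for cytokeratin 18 by immunofluorescence. All 10 epithelial markers examined, among them KRT8, KRT18, KRT19 and CDH1, had a mean FPKM under 0.5, and none was at 0 in all 9 libraries. Their sum lay between 1.18 and 1.80 FPKM in CON, between 1.56 and 1.87 in GA and between 1.43 and 2.25 in GB. The 10 markers of stromal fibroblasts, among them VIM and COL1A1, had a sum between 16860 and 17441 FPKM in CON, between 17052 and 17451 in GA and between 15293 and 15410 in GB. The RNA levels of these markers did not bear out the label, and the cells are called BEND here without a cell type. Of the stromal markers, the matrix proteoglycan genes DCN and LUM were called higher in GA vs. CON by limma with Benjamini-Hochberg adjustment, with a log2FC of 0.39 ± 0.061 (SE, adjusted p = 0.0380) and 0.24 ± 0.038 (adjusted p = 0.0392). The receptor gene PDGFRB was called lower, at -0.34 ± 0.057 (limma, Benjamini-Hochberg adjusted p = 0.0480), and the other 7 were not called. All 3 calls were lost with read GC content as a covariate. With 1 library left out, DCN was still called only without CON3 or GB3, LUM only without GB3 and PDGFRB in no case. Endothelial markers summed to 1.96 to 6.07 FPKM and immune markers to 34.1 to 45.5 FPKM over the 9 libraries. The part of a shift in cell composition in the results was not tested, and in bulk RNA fewer cells of a type cannot be told apart from less RNA per cell.

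NTS encodes the precursor of neurotensin and neuromedin N, secreted peptides that act on G protein-coupled receptors. It was the most abundant of the 8 genes and the one with the widest gap. NTS was at 68.87, 47.01 and 69.98 FPKM in CON, at 131.76, 146.08 and 171.27 in GA and at 159.93, 184.31 and 191.36 in GB. The lowest treated library was thus 1.88-fold above the highest control, and the ranges of GA and GB overlapped. The CON mean was 62.0 ± 13.0 FPKM (SD, n = 3), that of GA was 149.7 ± 20.003 (2.42-fold) and that of GB 178.5 ± 16.5 (2.88-fold). Of the genes for its receptors, SORT1 was in the table, with a mean of 2.05 FPKM in CON, 2.0 in GA and 1.39 in GB.

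WNT6 encodes a secreted ligand of frizzled receptors. It was at 2.17, 1.56 and 0.69 FPKM in CON, at 3.51, 5.14 and 4.91 in GA and at 5.17, 3.64 and 5.99 in GB. All treated libraries lay above the controls, by at least 1.62-fold, but the 3 controls differed among themselves by 3.14-fold, the widest control range of the 8 genes. In CON the mean was 1.47 ± 0.744 FPKM (SD, n = 3), that of GA was 4.52 ± 0.882 (3.07-fold) and that of GB 4.93 ± 1.19 (3.35-fold). WNT6 is the only one of the 8 genes for which the study lists qRT-PCR primers, shown here because they define the amplicon that a repeat of this measurement would use, both written 5′ to 3′.
WNT6 forward: gccagttccagttccgcttc
WNT6 reverse: gtctcccggatgtcctgttg

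IGFBP5 encodes a binding protein of insulin-like growth factors (IGFs) that is secreted into the extracellular matrix. It was at 7.46, 11 and 8.86 FPKM in CON, at 5.27, 4.40 and 5.02 in GA and at 3.28, 4.40 and 3.78 in GB. The treated libraries were all below the controls, with GA1 closest to CON1 at a ratio of 1.42, the narrowest gap of the 8. The CON mean was 9.11 ± 1.78 FPKM (SD, n = 3), that of GA was 4.90 ± 0.448 (1.86-fold lower) and that of GB 3.82 ± 0.561 (2.38-fold lower).

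TOB1 encodes an antiproliferative protein of the BTG/TOB family that brings the CCR4-NOT deadenylase to mRNAs. It had the tightest values of the 8 genes in CON. TOB1 was at 55.13, 57.90 and 62.87 FPKM in CON, at 103.17, 100.39 and 112.65 in GA and at 108.14, 105.31 and 109.02 in GB. In CON the mean was 58.6 ± 3.92 FPKM (SD, n = 3), that of GA was 105.4 ± 6.43 (1.80-fold) and that of GB 107.5 ± 1.94 (1.83-fold). The means of GA and GB thus differed by less than the SD of GA.

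KIAA1551, which RefSeq lists as RESF1, encodes a factor that works with the histone methyltransferase SETDB1 in silencing retroelements. It was at 14.77, 14.85 and 17.22 FPKM in CON, at 26.34, 26.81 and 31.83 in GA and at 28.54, 28.23 and 30.83 in GB. The GB values lay inside the range of GA, and both groups were well above CON. The CON mean was 15.6 ± 1.39 FPKM (SD, n = 3), that of GA was 28.3 ± 3.04 (1.81-fold) and that of GB 29.2 ± 1.42 (1.87-fold).

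ETFBKMT encodes a mitochondrial methyltransferase that modifies the beta subunit of electron transfer flavoprotein. It was at 9.17, 7.38 and 7.19 FPKM in CON, at 15.12, 13.86 and 18.52 in GA and at 16.59, 15.36 and 14.78 in GB. It was the only gene of the 6 higher ones whose mean was not further from CON in GB than in GA. In CON the mean was 7.91 ± 1.09 FPKM (SD, n = 3), that of GA was 15.8 ± 2.41 (2.0-fold) and that of GB 15.6 ± 0.924 (1.97-fold).

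P4HA3 encodes an alpha subunit of collagen prolyl 4-hydroxylase, the enzyme that hydroxylates proline in collagen chains. It was at 0.94, 1.42 and 1.60 FPKM in CON, at 2.58, 3.17 and 3.52 in GA and at 4.37, 4.50 and 2.57 in GB. GB3 stood apart from the other GB libraries and was the treated library nearest to CON. The CON mean was 1.32 ± 0.341 FPKM (SD, n = 3), that of GA was 3.09 ± 0.475 (2.34-fold) and that of GB 3.81 ± 1.08 (2.89-fold). In RefSeq (ARS-UCD2.0) P4HA3 overlaps PPME1, a neighbour at 74.8 FPKM in CON and 77.8 in GA, and the use of strand in counting is not given in the sources used here, so a share of reads could be assigned to either gene.

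ZBED3 encodes a zinc finger protein that binds axin, a scaffold of the complex that degrades beta-catenin. It was at 8.52, 5.51 and 4.56 FPKM in CON, at 2.39, 2.49 and 2.30 in GA and at 1.37, 1.57 and 3.07 in GB. GA was nearly constant, whereas GB3 again lay nearer to CON than the other GB libraries did. In CON the mean was 6.20 ± 2.07 FPKM (SD, n = 3), that of GA was 2.39 ± 0.0950 (2.59-fold lower) and that of GB 2.0 ± 0.929 (3.09-fold lower). RefSeq (ARS-UCD2.0) places a lncRNA gene and a snoRNA gene over ZBED3, so the same limit on the assignment of reads holds.

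**Figure D1:**
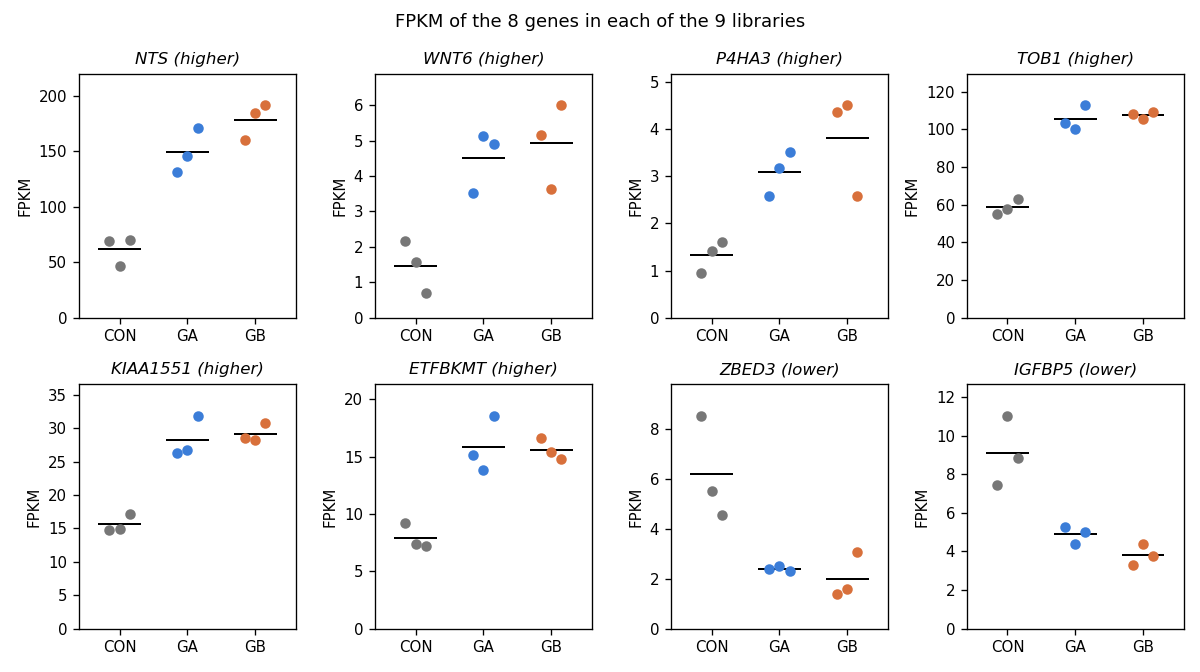
Each panel plots the FPKM of 1 gene (y axis, from 0) in the 3 libraries of CON, GA and GB (points), with the group mean as a line. In every panel the 6 treated libraries lie on 1 side of the controls, with NTS at 47.01 to 69.98 in CON and 131.76 to 191.36 in the treated libraries.

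GB lay further from CON than GA did for 5 of the 6 higher genes and for both lower genes. On the scale of log2(FPKM + 0.5) the median log2FC of the 6 higher genes was 0.97 in GA vs. CON (range 0.84 to 1.41) and 1.08 in GB vs. CON (range 0.87 to 1.54). For ZBED3 and IGFBP5 it was -1.17 and -0.82 in GA vs. CON, and -1.44 and -1.14 in GB vs. CON. Over all genes tested the median was 0.06 and -0.02. The ratio of the GB mean to the GA mean was 0.984 to 1.23 for the higher genes and 0.780 to 0.837 for the lower ones, a range that the rule itself limits. Both comparisons share the CON libraries.

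**Figure D2:**
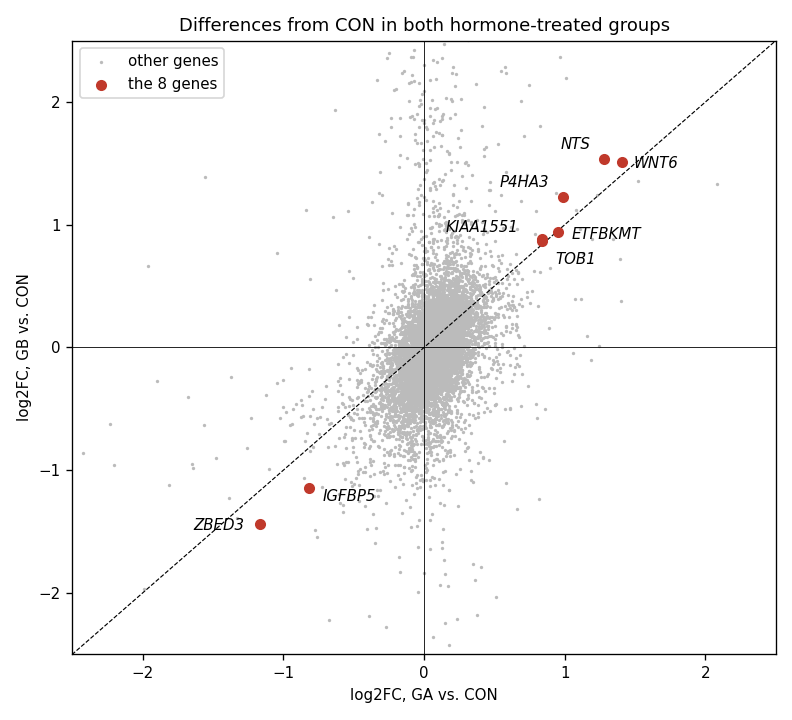
Each point is a gene whose mean FPKM reached 2, with the log2FC in GA vs. CON on the x axis and in GB vs. CON on the y axis; the dashed line marks equal values and 129 genes beyond 2.5 on either axis are not drawn. The 8 genes (red) lie close to the dashed line, from -1.17 for ZBED3 to 1.41 for WNT6 on the x axis.

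With limma and Benjamini-Hochberg adjustment over 12578 genes whose mean FPKM reached 0.5, 31 genes (0.246%) were called higher and 26 (0.207%) lower in GA vs. CON at an adjusted p under 0.05. Of the same genes 2430 (19.3%) had an unadjusted p under 0.05. In GB vs. CON 2034 (16.2%) were called higher and 2178 (17.3%) lower, whereas GB vs. GA gave 1242 higher (9.87%) and 2409 lower (19.2%). Of the 8 genes, 4 were among those called in GA vs. CON, all on the higher side. All 8 were called in GB vs. CON and none in GB vs. GA. With read GC content as a covariate, described next, 3 of the 8 were still called in GB vs. CON and none in GA vs. CON. The 4 calls in GA vs. CON became 2 without the variance trend, with only the 2 groups compared in the fit, without CON1 and without GA3. The rule chose the 8 genes from the values of these same libraries, so these calls are no test of them. Nothing is read from the counts, and they do not rank the 8 genes.

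The read composition of the libraries followed the groups. In the sequencing statistics of the study, matched to the libraries by name, the GC content of the reads was higher in every CON library than in every GA and GB library, and GA and GB overlapped. Another table of the study, on mapping, names the groups differently, so the match by name carries some doubt. Read GC content and the contrast of CON with the treated groups therefore cannot be told apart. With the GC content as a covariate, 0 genes were called in GA vs. CON by limma with Benjamini-Hochberg adjustment, and 984 had an unadjusted p under 0.05. The sign of all 8 genes was kept in this fit. NTS moved most, from a log2FC of 1.28 to 0.57 in GA vs. CON and from 1.54 to 0.78 in GB vs. CON. In GA vs. CON, WNT6 was then at 1.47, P4HA3 at 1.22, TOB1 at 0.76, KIAA1551 at 0.61 and ETFBKMT at 0.78. The lower genes were at -1.61 (ZBED3) and -0.56 (IGFBP5). 

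Membership turned on single libraries in some cases. CON3 set the control limit for NTS, P4HA3, TOB1, KIAA1551 and ZBED3, and CON1 set it for the other 3 genes. On the treated side GA1 was the limiting library for NTS, WNT6, KIAA1551 and IGFBP5, GA2 for TOB1 and ETFBKMT, and GB3 for P4HA3 and ZBED3. Leaving out a library can only keep or widen a gap, so only the limits on the mean and on GB against GA could end membership. With any 1 library other than GB3 left out, all 8 genes still met both. Without GB3, P4HA3 and ZBED3 were lost because their GB means then differed from the GA means by more than 1.4-fold, not because a gap closed. All 8 were also kept after each of 3 rescalings of the libraries.

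The genes nearest the limit on the outside were close to those inside. TTR, which encodes a carrier of thyroid hormone and retinol, had a gap of 1.38 on the lower side, with 6.48, 3.99 and 3.49 FPKM in CON, 1.03, 2.45 and 2.29 in GA and 1.41, 2.28 and 2.52 in GB. JUND, an AP-1 subunit with far higher levels, had a gap of 1.35, with 254.90, 239.17 and 256.05 FPKM in CON, 177.04, 159.61 and 168.65 in GA and 122.69, 120.31 and 143.32 in GB. ENO3, a muscle-type enolase, had a gap of 1.36, with 6.44, 6.45 and 6.38 FPKM in CON, 4.70, 4.05 and 4.52 in GA and 3.24, 4.29 and 3.53 in GB. Being picked for their gaps, these 3 genes could not overlap between treated and control libraries. Of all 11191 genes, 1040 (9.29%) had all treated libraries above all controls and 416 (3.72%) had them below.

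On the higher side, C22H3orf35 had a gap of 1.35, with 0.85, 1.27 and 1.27 FPKM in CON, 3.92, 2.90 and 2.87 in GA and 2.01, 4.32 and 1.71 in GB. IL7, a cytokine of lymphocyte development, had a gap of 1.33, with 4.34, 5.10 and 7.66 FPKM in CON, 11.17, 10.21 and 11.87 in GA and 13.14, 11.34 and 18.37 in GB. GINS3, a subunit of the replication helicase, had a gap of 1.32, with 12.92, 13.51 and 12.08 FPKM in CON, 18.62, 19.91 and 17.83 in GA and 19.82, 24.18 and 20.28 in GB. The gap of IL7 was set by CON3 and would be 2.0 without that library. At a limit of 1.2 the rule held for 18 higher and 19 lower genes, and at 1.7 for NTS alone.

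**Figure D3:**
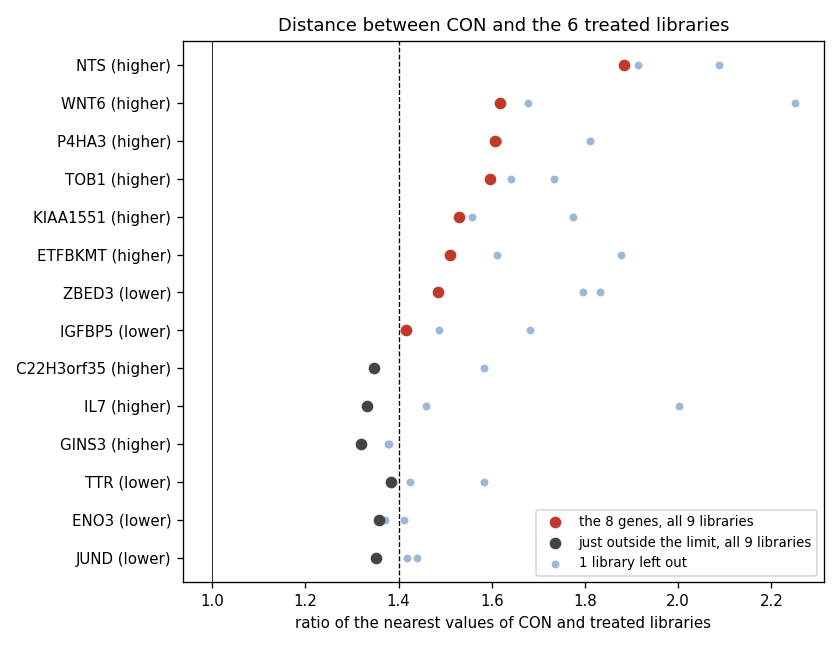
For each gene (rows) the ratio between the nearest control and treated libraries is plotted on the x axis over all 9 libraries (large points) and with each library left out in turn (small points), with the limit of 1.4 as a dashed line. The 8 genes (red) run from 1.42 for IGFBP5 to 1.88 for NTS, and the genes just outside (dark) from 1.32 for GINS3 to 1.38 for TTR.

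RARRES1 and LOC104969352 met the fold condition against CON but were dropped because GB and GA differed. RARRES1, a retinoid-responsive gene, had 111.18, 96.07 and 109.35 FPKM in CON, 174.94, 169.64 and 164.86 in GA and 247.18, 233.70 and 244.73 in GB, a GB to GA ratio of 1.42. LOC104969352, annotated as an H3.1-like histone, was listed at 0 in all controls and had a mean of 1.82 FPKM in GA and 5.49 in GB.

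A further 12 higher and 13 lower genes met the fold conditions at a mean FPKM under 2, where a value rests on fewer reads. GREB1 stood out among them for its gap of 5.34. This gene is an early target of the estrogen receptor, and it was at 0.09, 0.11 and 0.38 FPKM in CON, at 2.23, 2.12 and 2.44 in GA and at 2.51, 2.48 and 2.03 in GB. The other higher genes of greatest level were ZKSCAN7 with a mean of 0.890, 1.68 and 2.17 FPKM in CON, GA and GB, MYLK3 with 0.287, 0.953 and 0.967, LOC112449355 with 0.237, 0.820 and 0.970, and TMCO2, which was listed at 0 in all controls and had 0.853 in GA and 0.647 in GB. Of these, GREB1 and ZKSCAN7 would be members at a mean FPKM of at least 1.

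Among the lower genes of low level, RRAD, a small GTPase, had a mean of 3.06 FPKM in CON, 1.33 in GA and 1.03 in GB. ASB16 had 2.18 FPKM in CON, 1.12 in GA and 0.893 in GB. LEAP2, an antimicrobial peptide gene, was at 2.37, 2.44 and 2.09 FPKM in CON and CCL4, a chemokine gene, at 1.61, 1.67 and 1.56, and both were listed at 0 in all 6 treated libraries. LOC107131330 had 0.237 FPKM in CON, 0.0800 in GA and 0.0900 in GB. In all, 7 of the 13 lower genes were listed at 0 in every treated library.

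The rule was also applied with 1 replicate number left out at a time. The rule was applied to the 6 libraries of the other numbers, and the CON, GA and GB library of the number left out were then compared. With replicate 1, 2 and 3 held out, 12, 15 and 19 genes were chosen on the higher side. In the held-out libraries 9, 7 and 8 of these were again past 1.4-fold in both GA and GB, against 1.94%, 3.54% and 1.61% of all genes above the same floor. On the lower side 11, 6 and 25 genes were chosen and 3, 2 and 3 were past the limit in the held-out libraries, against 1.57%, 1.7% and 1.22% of all genes. Over the 3 rounds this was 24 of 46 choices (52.2%) on the higher side and 8 of 42 (19.0%) on the lower. Choices of the members, which the full rule had to place past the limit, were 17 of the 24 and 4 of the 8. Both shares, and the counts of each round, are raised by this. They do not measure how often a choice held, and nothing is read from them beside the shares of all genes. Many choices recur between rounds, since any 2 rounds share libraries.

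For the 8 genes themselves these rounds gave no separate reading. The full rule already placed each of their treated libraries more than 1.4-fold beyond each control, so NTS, WNT6, P4HA3, TOB1, KIAA1551, ETFBKMT, ZBED3 and IGFBP5 had to be past the limit in every round that chose them. They made up 17 of the 46 choices on the higher side and 4 of the 42 on the lower. Outside the 8 genes, IL7 and JUND were past the limit in 2 rounds each and 7 further genes in 1 round. Whether the replicate numbers pair the libraries is not stated in the sources used here.

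KIAA1551 and ETFBKMT lie near each other. In the gene order of RefSeq (ARS-UCD2.0) only AMN1, a gene named for a yeast regulator of mitotic exit, separates them among protein-coding genes, and ETFBKMT is followed by DENND5B and SINHCAF, a subunit of the SIN3-HDAC complex. AMN1 was at 3.65, 3.31 and 3.74 FPKM in CON, at 6.0, 4.43 and 5.05 in GA and at 4.12, 5.91 and 5.26 in GB, with no overlap between CON and the treated libraries. Its log2FC was 0.47 ± 0.15 (SE) in GA vs. CON (limma with Benjamini-Hochberg adjustment, adjusted p = 0.149) and 0.45 ± 0.15 in GB vs. CON (adjusted p = 0.0415).

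SINHCAF was at 35.63, 33.35 and 44.98 FPKM in CON, at 48.68, 47.35 and 49.40 in GA and at 55.81, 54.54 and 58.51 in GB. Its log2FC was 0.36 ± 0.096 (SE) in GA vs. CON (limma, Benjamini-Hochberg adjusted p = 0.115) and 0.57 ± 0.096 in GB vs. CON (adjusted p = 0.00185). DENND5B, an exchange factor for Rab GTPases, had 0.24 ± 0.087 (limma, Benjamini-Hochberg adjusted p = 0.194) and 0.29 ± 0.087 (adjusted p = 0.0301). The genes on either side of this run, BICD1 and CAPRIN2, had a log2FC of 0.06 and 0.02 in GA vs. CON and of -0.07 and 0.11 in GB vs. CON, and none of these passed the test. The 3 calls in GB vs. CON were lost with read GC content as a covariate, where the limma Benjamini-Hochberg adjusted p was 0.701 for AMN1, 0.467 for DENND5B and 0.286 for SINHCAF. The calls of AMN1 and DENND5B also each depended on single libraries: with CON1, CON2 or GB3 left out, both were lost. The call of AMN1 was lost without CON3, GA3 or GB2 as well, and that of DENND5B without GB1.

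**Figure D4:**
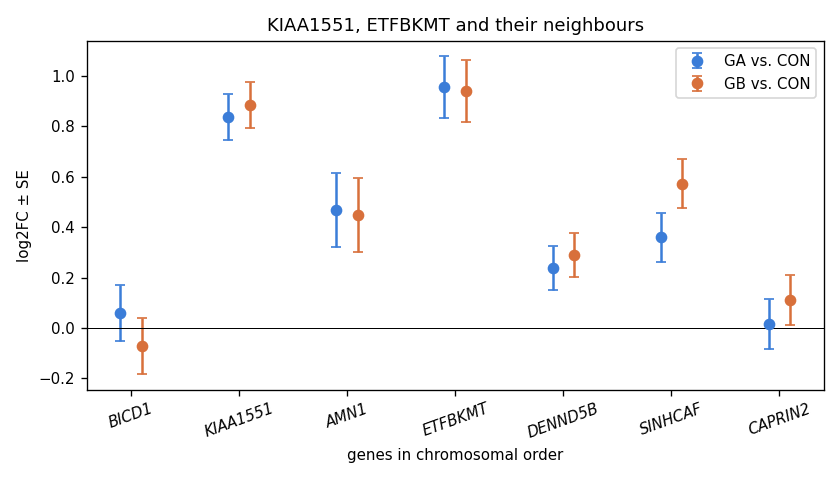
The log2FC with its SE (y axis) is plotted for 7 protein-coding genes in chromosomal order (x axis), for GA vs. CON in blue and GB vs. CON in orange. The 5 genes from KIAA1551 to SINHCAF lie above 0 in both comparisons, from 0.24 for DENND5B to 0.95 for ETFBKMT in GA vs. CON, between BICD1 at 0.06 and CAPRIN2 at 0.02. KIAA1551 and ETFBKMT were chosen for being higher. Over all genes 66% lay above 0 in GA vs. CON, and 52.6% lay below 0 in GB vs. CON.

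With 3 protein-coding genes taken on each side of each of the 8, 29 distinct neighbours that were not members could be tested. Of these 0 were called in GA vs. CON by limma with Benjamini-Hochberg adjustment, with 5 at an unadjusted p under 0.05, and 4 were called higher and 5 lower in GB vs. CON. These counts are near the shares over all genes, which were 0.453% called and 19.3% at an unadjusted p under 0.05 in GA vs. CON, and 16.2% higher and 17.3% lower in GB vs. CON. The 4 higher ones, FGD4, AMN1, DENND5B and SINHCAF, all lie around KIAA1551 and ETFBKMT. FGD4 differed from the others, with a log2FC of 0.03 in GA vs. CON. In GB vs. GA it had 0.34 (limma, Benjamini-Hochberg adjusted p = 0.0318). BICD1, which was not called, lies between FGD4 and KIAA1551. WNT6 lies next to WNT10A, which was too low for the test, with 0.17, 0.00 and 0.30 FPKM in CON, 0.17, 0.88 and 0.43 in GA and 0.24, 0.86 and 0.34 in GB, and its groups overlapped. IGFBP5 lies next to IGFBP2, which was at 222.48, 207.73 and 186.14 FPKM in CON, at 172.85, 179.25 and 177.65 in GA and at 146.73, 154.81 and 161.37 in GB. IGFBP2 had a log2FC of -0.21 ± 0.065 (SE) in GA vs. CON (limma, Benjamini-Hochberg adjusted p = 0.142) and of -0.41 ± 0.065 in GB vs. CON (adjusted p = 0.00136). With read GC content as a covariate the latter was -0.44, with a limma Benjamini-Hochberg adjusted p of 0.0658.

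Genes of the same families and complexes were read beside the 8 genes. Of 45 tested ones, 0 were called by limma with Benjamini-Hochberg adjustment in GA vs. CON, with 10 at an unadjusted p under 0.05, and their log2FC ran from -0.54 to 0.27. In GB vs. CON 8 were called higher and 10 lower. The shares over all genes given above for the neighbours are near these counts too, so nothing particular to the families is read from them.

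Among the WNT ligands, WNT5A and WNT2 were the most abundant, with 468.3 and 223.4 FPKM in CON against 1.47 for WNT6. The 8 tested ligands had a log2FC of -0.22 to 0.09 in GA vs. CON, none of which passed the test. Of these, 1 was called higher in GB vs. CON, WNT5A (0.17). The 3 called lower there were WNT2 (-0.41), WNT2B (-0.39) and WNT11 (-0.67). Of the beta-catenin degradation genes, AXIN1 (-0.03), AXIN2 (0.08), APC (0.14) and GSK3B (0.18) were not called in GA vs. CON. APC was called lower in GB vs. CON (-0.56, limma, Benjamini-Hochberg adjusted p = 5.67e-05), and AXIN1, AXIN2 and GSK3B were not called. AXIN2, a common target of beta-catenin signaling, had a CON mean of 2.24 ± 0.275 FPKM (SD, n = 3), a GA mean of 2.40 ± 0.361 and a GB mean of 2.23 ± 0.208.

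For the IGF system, the 9 tested genes for binding proteins, ligands and receptors all had a log2FC below 0 in GA vs. CON, from -0.54 for IGF1 to -0.01 for IGF2R, and none was called. Over all genes 34% had a log2FC below 0 in that comparison. In GB vs. CON 7 of the 9 were below 0, beside 52.6% of all genes, with 1 called higher and 4 lower. IGFBP3 went the other way there, with 27.52, 30.43 and 35.71 FPKM in CON, 25.02, 26.66 and 27.57 in GA and 52.83, 40.31 and 58.06 in GB. IGFBP5 was a minor member of the family, since IGFBP6, IGFBP7 and IGFBP4 had 1106.9, 993.1 and 660.7 FPKM in CON.

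P4HA3 was likewise minor beside the other alpha subunits, with 1.32 FPKM in CON against 375.8 for P4HA2 and 54.6 for P4HA1. The log2FC in GA vs. CON was -0.04 for P4HA2 and 0.19 for P4HA1, and neither was called. P4HA2 was called lower in GB vs. CON (-0.195, limma, Benjamini-Hochberg adjusted p = 0.00316), and P4HA1 was not called (0.12). In the BTG/TOB family, BTG1 had a log2FC of 0.23 and TOB2 of -0.10 in GA vs. CON, neither called. BTG1 was called higher in GB vs. CON (0.30, limma, Benjamini-Hochberg adjusted p = 0.00467) and TOB2 lower (-0.44, adjusted p = 0.00271). The deadenylase genes CNOT1, CNOT6, CNOT7 and CNOT8 lay between 0.06 and 0.19 in GA vs. CON and were not called there. CNOT1 (0.18) and CNOT6 (0.30) were called higher in GB vs. CON, and CNOT7 and CNOT8 were not. SETDB1, the partner of the KIAA1551 product, was at 7.55 ± 0.186 FPKM (SD, n = 3) in CON and 8.0 ± 0.971 in GA. Its log2FC of 0.07 between these groups was not called. With IFNT added, the SETDB1 mean was 9.53 ± 0.460 FPKM. This gene was called higher in GB vs. CON (0.32, limma, Benjamini-Hochberg adjusted p = 0.0269). ETFB, whose product ETFBKMT methylates, was at 143.3 ± 11.4 FPKM in CON, 136.2 ± 2.36 in GA and 129.4 ± 1.04 in GB. It was not called in either comparison with CON.

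None of the 8 genes was on the hormone response lists used here. The lists held 26 genes each and were drawn up with earlier results of these data known. Absence from them thus does not show that a gene is no hormone target. On the list of 20 tested estrogen response genes, 1 was called higher and 0 lower in GA vs. CON, and the median log2FC was 0.01 beside 0.06 over all genes. The gene called was GREB1, with a log2FC of 2.02 ± 0.19 (SE; limma, Benjamini-Hochberg adjusted p = 0.00639), higher in 3 of 3 GA libraries. It had 2.05 ± 0.19 in GB vs. CON (limma, Benjamini-Hochberg adjusted p = 4.67e-05). With read GC content as a covariate the GA vs. CON value was 1.84, with a limma Benjamini-Hochberg adjusted p of 0.280. PGR, with a log2FC of 0.41 ± 0.078 in GA vs. CON, just missed the threshold (limma, Benjamini-Hochberg adjusted p = 0.0628), and TGFA had 0.61 ± 0.15 (adjusted p = 0.102).

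Of the 21 tested genes of the progesterone and glucocorticoid list, 0 were called in either direction in GA vs. CON by limma with Benjamini-Hochberg adjustment, with 7 higher and 2 lower at an unadjusted p under 0.05, beside 14.9% and 4.37% of all genes. Of these 21 genes 18 had a log2FC above 0, as did 66% of all genes, and the median was 0.19 beside 0.06 over all genes. TSC22D3, a glucocorticoid-induced leucine zipper gene, was at 83.75, 77.44 and 91.22 FPKM in CON, at 136.59, 118.53 and 142.48 in GA and at 90.86, 89.41 and 60.47 in GB. It thus differed from the 8 genes in that GB lay near CON (log2FC -0.09 ± 0.15 (SE)), and the difference between GB and GA passed the test (log2FC -0.74 ± 0.15, limma, Benjamini-Hochberg adjusted p = 0.00533).

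**Figure D5:**
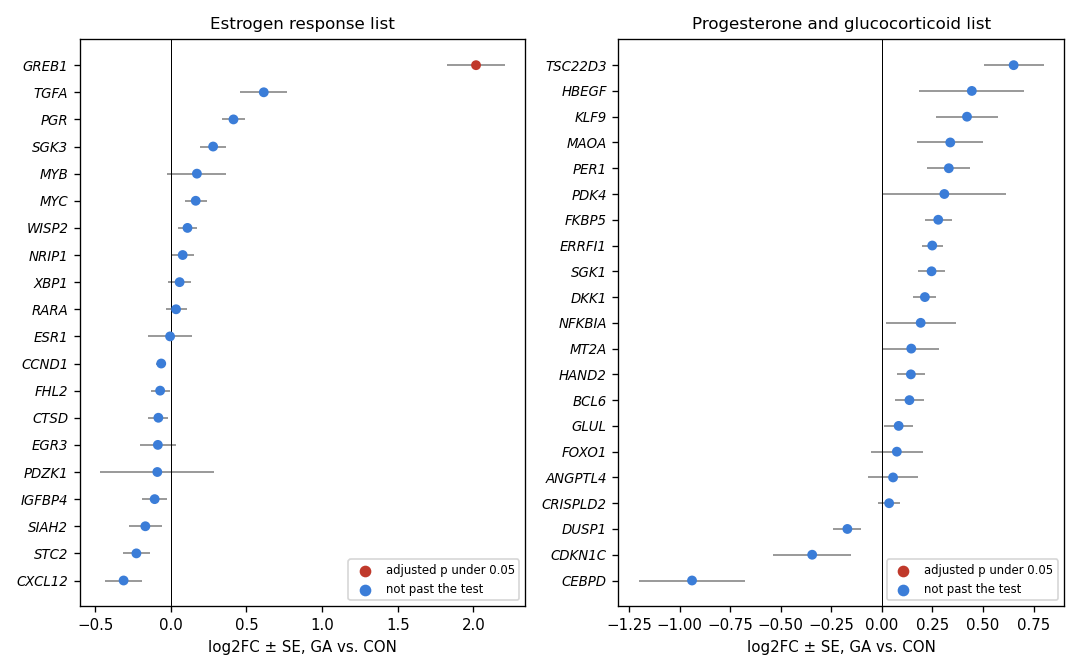
The log2FC in GA vs. CON with its SE (x axis) is plotted for the 20 tested estrogen response genes (left) and the 21 tested progesterone and glucocorticoid response genes (right), in order of value. GREB1 at 2.02 is the only gene past the test (red), and 18 of the 21 genes on the right lie above 0.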

How the data were processed

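The deposited values were the FPKM of each gene and library, written to 2 decimals, which the authors obtained from poly-T selected, directional libraries. Per the labels and methods, reads were trimmed with fastp 0.21.0, rRNA reads removed with Bowtie2 2.33, the rest aligned to ARS-UCD1.2 with HISAT2 2.2.1 and counted with RSEM 1.3.3. DESeq2 1.34.0 was the authors' own test. No read counts were used here, so depth per gene is unknown. FPKM summed to 1395622 to 1442723 per library.

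The table was analysed in R 4.3.3 with limma 3.58.1 on log2(FPKM + 0.5), for genes whose mean FPKM reached 0.5, with 1 mean per group over 9 libraries, a variance trend and Benjamini-Hochberg adjustment. Fold changes on this scale understate those of low genes. The procedure was tested on simulated data, with known changes placed only in genes of higher level. That test therefore gives no reading of genes of lower level or of read GC content. Neighbours were taken from RefSeq (ARS-UCD2.0), where 16310 of 17162 genes matched by symbol or synonym. Figures were drawn with matplotlib 3.10.9. Samples were grouped by the treatment in the labels.

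The 8 genes, the lists and the families were chosen with earlier results of these data known, and the families after the 8 genes were. Genes named are the 8, those nearest the limit, the 5 each way of highest mean FPKM under 2, list genes called in GA vs. CON, neighbours and family members. The individual values of PGR, ESR1, TGFA, TSC22D3, IL7 and the neighbours were singled out after being seen. Promoter sequences and motifs were not analysed here. The alternatives were other limits, pseudocounts, filters, scalings, fits, a replicate block and libraries left out. Added after seeing the data were the same alternatives for the named neighbours, list and marker genes and low genes.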

Additional observations from a re-analysis of the deposited data

How the results depend on the processing

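The 8 genes kept their direction under all 272 alternatives of their log2FC, of which 22 moved the value by more than the residual SD. For most of these, such as libraries left out and other pseudocounts, the rule had fixed the direction in advance. Nothing is therefore read from this count. The count of higher genes went from 6 to 18 at a limit of 1.2 and to 1 at 1.7, and ranged from 6 to 12 with 1 library left out (12 without CON3). The count of lower genes went from 2 to 19 and 0 at these limits, to 4 with median-of-ratios factors, with quantile normalization and at a mean FPKM of at least 1, and to 1 at a mean FPKM of at least 5. It ranged from 2 to 13 with 1 library left out, with 13 without GB3, 5 without CON1 and 4 without CON2, GA1, GA2 or GA3. WNT6, P4HA3 and ZBED3 were lost at a mean FPKM of at least 5.

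The 57 genes called in GA vs. CON became 34 without a filter, 90 with median-of-ratios factors, 13 without the variance trend and 21 with only the 2 groups in the fit. They ranged from 7 to 78 with 1 library left out, with 7 without CON1, 23 without CON2, 13 without GA1 or GA2, 11 without GA3 and 24 without GB1. With read GC content as a covariate 0 genes were called in GA vs. CON by limma (984 at an unadjusted p under 0.05) and 1472 in GB vs. CON, and with the replicate block added 0 (987 unadjusted) and 514. In GB vs. CON the log2FC of DCN turned from 0.16 to -0.0523 with this covariate, and that of PDGFRB from -0.24 to 0.0187 with the covariate and the block. The cause was not tested in any of these cases.

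The deviations of same-numbered libraries had correlations from -0.0306 to 0.0772, and those of other pairs from -0.0678 to 0.0565. Of 9 libraries 6 correlated best with their own number. With 3 libraries per group this cannot decide whether the numbers pair the samples. With the replicate block 53 genes were called in GA vs. CON, and of the named genes TMCO2, PTX3, LUM and PDGFRB lost their call there and AMN1 in GB vs. CON, where DCN gained one. At an FPKM near 2 a gene rests on fewer reads, and WNT6, P4HA3 and ZBED3 are less precise than NTS or TOB1.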

Other observations

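Other lists were read in GA vs. CON by limma with Benjamini-Hochberg adjustment, beside 0.453% called over all genes. Of 23 tested immediate early genes 2 were called higher, EGR1 with a log2FC of 0.66 ± 0.073 (SE, adjusted p = 0.0123) and CYR61 with 0.38 ± 0.039 (adjusted p = 0.00845). The level of EGR1 in GB was near that of CON, with 22.13, 22.97 and 26.50 FPKM in CON, 37.59, 36.68 and 39.28 in GA and 28.20, 26.18 and 26.08 in GB, and the log2FC of GB vs. GA was -0.49 ± 0.073 (limma, Benjamini-Hochberg adjusted p = 0.00109). CYR61 was at 629.98, 585.06 and 628.84 FPKM in CON, at 803.04, 809.03 and 782.84 in GA and at 899.92, 894.02 and 885.24 in GB, with a gap of 1.24 that left it outside the limit. Of 19 tested ER stress and amino acid response genes 1 was called lower, the transcription factor gene CEBPB, with a log2FC of -0.88 ± 0.14 (limma, Benjamini-Hochberg adjusted p = 0.0392). CEBPB was at 193.53, 176.70 and 186.81 FPKM in CON, at 114.67, 94.16 and 95.20 in GA and at 142.94, 109.23 and 167.89 in GB.

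Of 12 tested inflammatory cytokine genes PTX3 and ICAM1 were called higher and CCL4 lower in GA vs. CON. PTX3 had means of 0.260, 1.07 and 1.93 FPKM in CON, GA and GB, and ICAM1 had 96.6, 124.9 and 190.8. The lists of cholesterol synthesis (18 tested), cell cycle (27), hypoxia and glycolysis (16) and interferon-stimulated genes (20) held 0 called genes in GA vs. CON by limma with Benjamini-Hochberg adjustment. In GB vs. CON all 20 interferon-stimulated genes were called higher. With read GC content as a covariate, EGR1, CYR61, CEBPB, PTX3, ICAM1 and CCL4 were no longer called in GA vs. CON. With 1 library left out, EGR1 was lost without CON1, GA1 or GA3, ICAM1 without CON1, CON2 or any GA library, CEBPB without any library other than GB2 and GB3, and PTX3 whichever of the 9 was left out, while CYR61 and CCL4 were kept throughout.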
